A study of Mus musculus with 4 samples.

Results

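The regions described here are short standalone H3K9ac peaks, which were 2629 of the 20943 H3K9ac differential peaks that the authors deposited. A peak was taken if it was at most 250 bp wide and if no other peak of the list began where it ended or ended where it began. The peaks come from aorta macrophages of C57BL/6J mice, isolated as CD11b+ cells with magnetic beads after 20 weeks of exposure. Chronic intermittent hypoxia (CIH), a model of obstructive sleep apnea, alternated 90 seconds at 6.1% oxygen with 90 seconds at 21% during the light phase, and mice of the room air (RA) group breathed 21% throughout. H3K9ac was measured in 2 libraries, 1 from CIH and 1 from RA, with no input library and no replicate. The list therefore compares 2 libraries, not the exposures, and every share below is a description of the listed peaks without a test across samples. The study used several mice per exposure, but how they were divided over the libraries is not given in the sources used here, and CD11b is also carried by monocytes and neutrophils. As the list holds only regions called different, the level of a macrophage marker could not be read from it.

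Acetylation of lysine 9 on histone H3 is added by histone acetyltransferases such as GCN5 and PCAF and removed by histone deacetylases. The mark neutralises a positive charge on the histone tail, is bound by bromodomain proteins, and is found mainly at active promoters, where it often spans the nucleosomes around the start site, and also at active enhancers. A peak of at most 250 bp is about as long as a single nucleosome with its linker DNA, whereas wider peaks cover several. In macrophages, histone acetylation at promoters and enhancers follows lineage factors such as PU.1 and signals from inflammatory receptors.

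The deposited list gives the position and direction of each peak but no count, so the depth behind each call was not known here and no level per library can be shown. Coordinates refer to mm9 and fall on a grid of 50 bp. What the sign of a peak means was taken from a listing of peaks with their genes and favoured exposure. It is held here for 483 peaks, all of which matched the list in name, position and direction. Intervals are exact Clopper-Pearson 95% intervals. They cover counting of peaks only, and since neighbouring peaks and peaks of the same libraries are not independent, they are too narrow.

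The gene listing is a selection that the study made by the number of reads in a peak, and it is held here in part. Among the 483 peaks of it, 1 was a short standalone peak, paired with Srsf6, which encodes a serine and arginine rich splicing factor, and with L3mbtl1, which encodes a chromatin reader of methylated histones. It was higher in RA and lies at chr2:162757501-162757750 of mm9. A longer peak paired with Srsf6, also higher in RA, ends 250 bp before it and spans 850 bp at chr2:162756401-162757250. The sequence of the short peak and the first 250 bases of the longer one are shown, as the gene listing gives them with no strand stated, to let the pieces of this locus be compared. CpG dinucleotides are in capitals, and n marks a base left unresolved there.
Srsf6 short peak: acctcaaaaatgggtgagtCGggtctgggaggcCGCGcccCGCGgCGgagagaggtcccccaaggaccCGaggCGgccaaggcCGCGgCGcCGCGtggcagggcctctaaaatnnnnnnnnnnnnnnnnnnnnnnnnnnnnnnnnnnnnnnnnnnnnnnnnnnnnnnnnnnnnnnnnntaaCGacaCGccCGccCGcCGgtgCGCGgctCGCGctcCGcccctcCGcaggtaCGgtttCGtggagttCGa
Srsf6 longer peak, start: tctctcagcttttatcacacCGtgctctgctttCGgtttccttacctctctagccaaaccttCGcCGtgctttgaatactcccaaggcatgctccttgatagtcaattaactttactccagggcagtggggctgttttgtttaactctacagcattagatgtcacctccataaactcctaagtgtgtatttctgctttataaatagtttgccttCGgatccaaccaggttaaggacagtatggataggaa
The short peak held 27 CpG dinucleotides, and 71.4% of its 185 resolved bases were G or C. Its 65 unresolved bases form a single run from position 114 to 178. The first 250 bases of the longer peak held 5 CpG dinucleotides and were 43.6% G or C. The short peak thus held more CpG than the start of its neighbour, in fewer readable bases. These are the sequences of 2 peaks and say nothing of the other short peaks, whose sequences were not used here.

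Nearly all short standalone peaks were higher in RA. Of the 2629, 2535 were higher in RA (96.4%, 95.6 to 97.1%) and 94 were higher in CIH (3.58%, 2.90 to 4.36%). In the whole H3K9ac list, 54.6% of peaks were higher in RA and 45.4% in CIH. The short standalone peaks were therefore far from the split of the list. Of the 10743 standalone peaks over 250 bp, 51.5% were higher in CIH (50.5 to 52.4%). Although they made up 12.6% of the peaks, the short standalone peaks covered 601 kb, or 5.13% of the bases in the list.

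Equally short peaks that touched another peak were less one-sided. Of 2129 touching peaks up to 250 bp, 610 were higher in CIH (28.7%, 26.7 to 30.6%). At a width of exactly 250 bp, 73 of 1706 standalone peaks were higher in CIH (4.28%, 3.37 to 5.35%), against 448 of 1068 touching peaks (41.9%, 39.0 to 45%). At 200 bp the shares were 13 of 742 (1.75%, 0.936 to 2.98%) and 113 of 634 (17.8%, 14.9 to 21.0%), and at 150 bp they were 6 of 164 (3.66%, 1.35 to 7.79%) and 45 of 345 (13.0%, 9.68 to 17.1%). The intervals of standalone and touching peaks did not overlap at 250, 200 or 150 bp. At 100 bp, with 2 of 16 standalone and 4 of 81 touching peaks higher in CIH, they did.

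Within the short standalone peaks, 1706 were 250 bp wide, 742 were 200 bp, 164 were 150 bp, 16 were 100 bp and 1 was 50 bp. The 250 bp width accounted for 77.7% of the 94 peaks favouring CIH and for 64.4% of the 2535 favouring RA. The change in direction continued past the width limit. Just outside it, 190 of 1430 standalone peaks of 300 bp were higher in CIH (13.3%), and the share rose to 27.4% at 350 bp and 41.1% at 400 bp. It reached 91.5% (88.7 to 93.8%) among the 507 standalone peaks over 1500 bp. From 800 bp to 1000 bp, standalone and touching peaks stood at 68.9% and 70.8% and their intervals overlapped, while from 550 bp to 750 bp, at 58.5% and 64.9%, they did not. Among the single widths, standalone and touching peaks lay farthest apart at 250 bp. Width and direction both come from the calling of these 2 libraries, and the part of library depth in their relation was not tested.

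**Figure D1:**
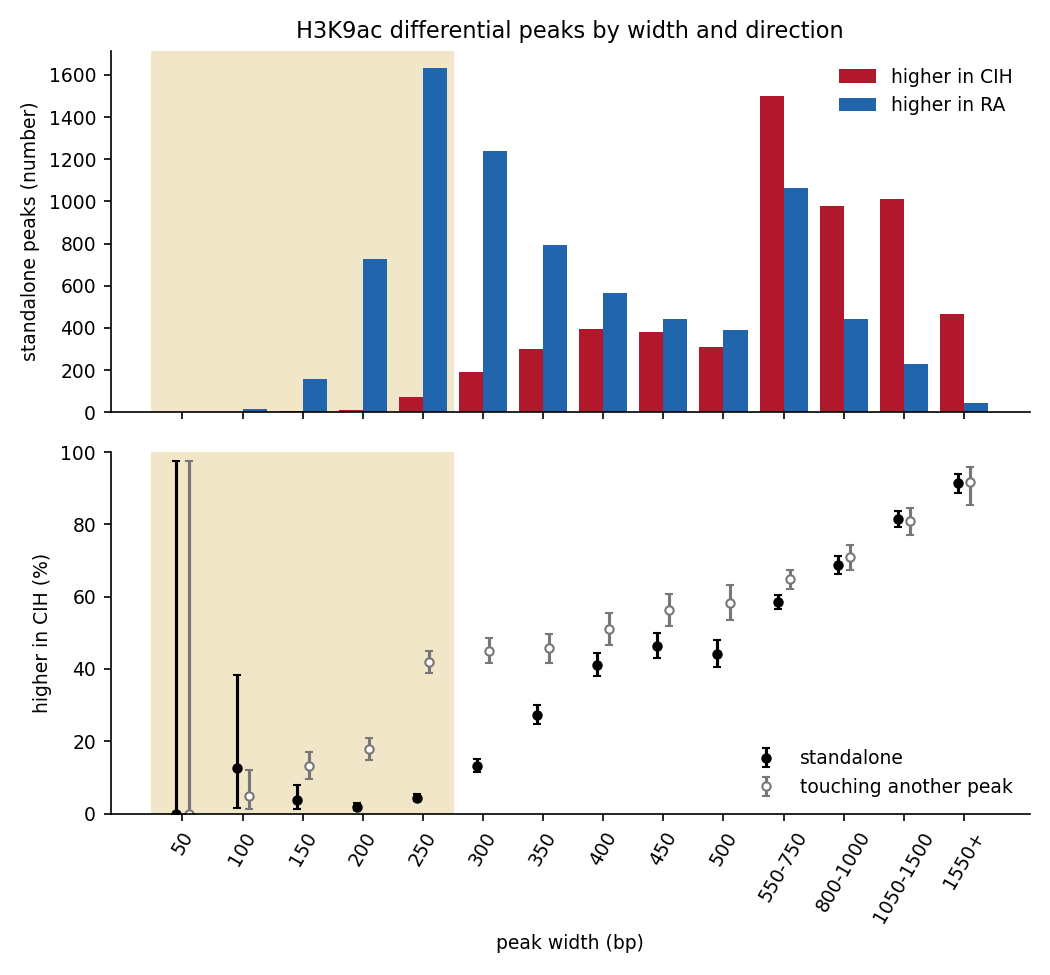
Upper plot, number of standalone H3K9ac peaks (vertical axis) by peak width in bp (horizontal axis, single widths up to 500 bp and classes above), red for higher in CIH and blue for higher in RA; lower plot, percent higher in CIH for standalone peaks (filled points) and touching peaks (open points) with exact 95% intervals. The shaded widths hold the 2629 short standalone peaks, with 1633 blue and 73 red at 250 bp, and the filled points climb from 1.75% at 200 bp to 91.5% in the widest class.

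With both directions pooled, short standalone peaks also lay farther from other differential peaks than wider standalone peaks did. Their median distance to the nearest other H3K9ac peak, from edge to edge, was 44.1 kb (41.4 to 46.5 kb, order-statistic interval), against 33.1 kb (32.2 to 34.2 kb) for wider standalone peaks. The middle 50% of short standalone peaks lay between 16.0 and 102 kb from the nearest peak. Of all 2629, 116 had a neighbour within 1 kb (4.41%, 3.66 to 5.27%), 434 within 10 kb (16.5%, 15.1 to 18.0%), and 664 had none within 100 kb (25.3%, 23.6 to 27%). Among wider standalone peaks, 7.25% had a neighbour within 1 kb (6.77 to 7.76%) and 19.2% had none within 100 kb (18.4 to 19.9%). Pooled over direction, short standalone peaks thus had close neighbours less often, by intervals that did not overlap. The same order held among peaks higher in RA, at 3.79% (3.08 to 4.61%) of short and 5.51% (4.90 to 6.16%) of wider peaks within 1 kb. Among peaks higher in CIH the order was reversed, at 21.3% (13.5 to 30.9%) and 8.90% (8.16 to 9.68%). The nearest peak itself was a short standalone peak for 438 of all 2629 (16.7%), while such peaks were 12.6% of the list. The list counts every peak in a chain of touching peaks, so its share is not a matched baseline for the nearest peak. Whether short standalone peaks lay next to each other more often than their number alone would give was not tested.

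The few short peaks higher in CIH more often had another peak within 500 bp than those higher in RA did. Of the 94 higher in CIH, 17 lay within 500 bp of another peak (18.1%, 10.9 to 27.4%). Of the 2535 higher in RA, 68 did (2.68%, 2.09 to 3.39%). The median distances were 25.5 kb (14.1 to 45 kb) and 44.7 kb (41.8 to 47.3 kb), with intervals that overlap. Without peaks closer than 500 bp to another peak they were 39.7 and 46.3 kb, and with a width limit of 200 bp the order turned, at 45.9 and 45.2 kb. Read the other way, 17 of the 85 short peaks within 500 bp of another peak were higher in CIH (20.0%, 12.1 to 30.1%). Beyond 500 bp, 77 of 2544 were (3.03%, 2.40 to 3.77%). Wider standalone peaks had the same order, at 66.0% (62.1 to 69.7%) and 50.6% (49.6 to 51.6%). Beyond 1 kb the share was at most 6.02% in any distance class. With 20 of 94 peaks higher in CIH beyond 100 kb, remote short peaks of this direction did exist.

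**Figure D2:**
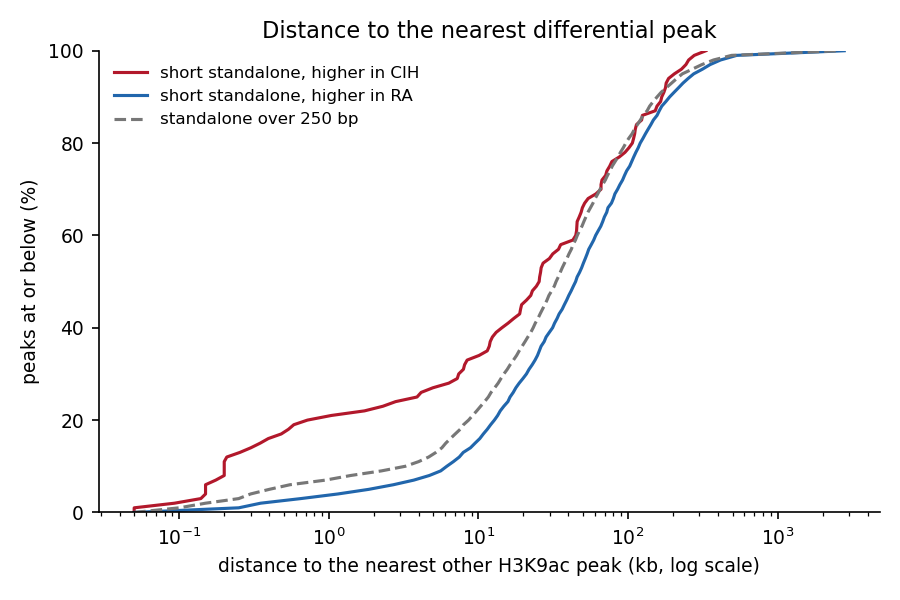
Percent of peaks (vertical axis) whose nearest other H3K9ac peak lies at or below a distance in kb (horizontal axis, log scale), for short standalone peaks favouring CIH (red) or RA (blue) and for wider standalone peaks (dashed grey). The red line lies above the blue line at short distances, where 18.1% and 2.68% of peaks have a neighbour within 500 bp, and the medians are 25.5 and 44.7 kb.

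The direction of the nearest peak depended on the gap. At gaps over 100 and up to 250 bp, 39 of 44 short standalone peaks had the same direction as their neighbour (88.6%, 75.4 to 96.2%). This held for peaks of each direction, with 30 of 34 higher in RA and 9 of 10 higher in CIH. At gaps over 250 bp and up to 1 kb the share was 35 of 64 (54.7%, 41.7 to 67.2%). At gaps over 1 kb, the nearest peak of a short peak higher in RA was also higher in RA in 1408 of 2439 (57.7%, 55.7 to 59.7%). For wider standalone peaks higher in RA this share was 56.5% (55.1 to 57.9%), and the intervals overlap. Of all standalone peaks 57.9% were higher in RA. In the whole list, which counts every peak of a touching chain, 54.6% were. Wider standalone peaks at gaps over 100 and up to 250 bp also had the direction of their neighbour in 237 of 269 (88.1%, 83.6 to 91.7%), so the pattern was shared by both widths.

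At the smallest gaps of 50 and 100 bp, 8 short standalone peaks were found, and only 2 of them had the direction of their neighbour. All 5 that were higher in RA lay beside a peak higher in CIH. One of these was a 200 bp peak at chr11:62388501-62388700, which lay 50 bp from a 1650 bp peak higher in CIH. The pair that shared a direction were peaks of 250 bp higher in CIH, at chr4:137992001-137992250 and chr8:91748951-91749200, each 50 bp from a 350 bp peak higher in CIH. With 8 peaks the interval of the share was wide (25%, 3.19 to 65.1%). Wider standalone peaks at these gaps had the direction of their neighbour in 93 of 139 (66.9%, 58.4 to 74.6%). Those of them higher in RA did so in only 3 of 22 (13.6%, 2.91 to 34.9%), so opposite neighbours of RA peaks were found at both widths.

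Peak names in the list carry a running number that rises with position on every chromosome. All 4157 pairs of touching peaks have consecutive numbers. For the 116 short standalone peaks with a neighbour within 1 kb, the number differed from that of the neighbour by 2 in 82, by 1 in 21 and by 3 in 13. Where it differed by 2, a single number between them is not among the listed peaks. Of these 82 short peaks, 65 had the direction of their neighbour (79.3%, 68.9 to 87.4%). Short peaks that are the nearest of each other are each counted here. Where it differed by 1, 7 of 21 did (33.3%, 14.6 to 57.0%), and where it differed by 3, 4 of 13 did (30.8%, 9.09 to 61.4%). The interval for a difference of 2 did not overlap that of the others. The gaps differed too, with medians of 250 bp at a difference of 1, 275 bp at 2 and 750 bp at 3. All 8 short peaks with gaps up to 100 bp differed by 1. Number and gap were not separated here. The files do not say what a missing number stands for.

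**Figure D3:**
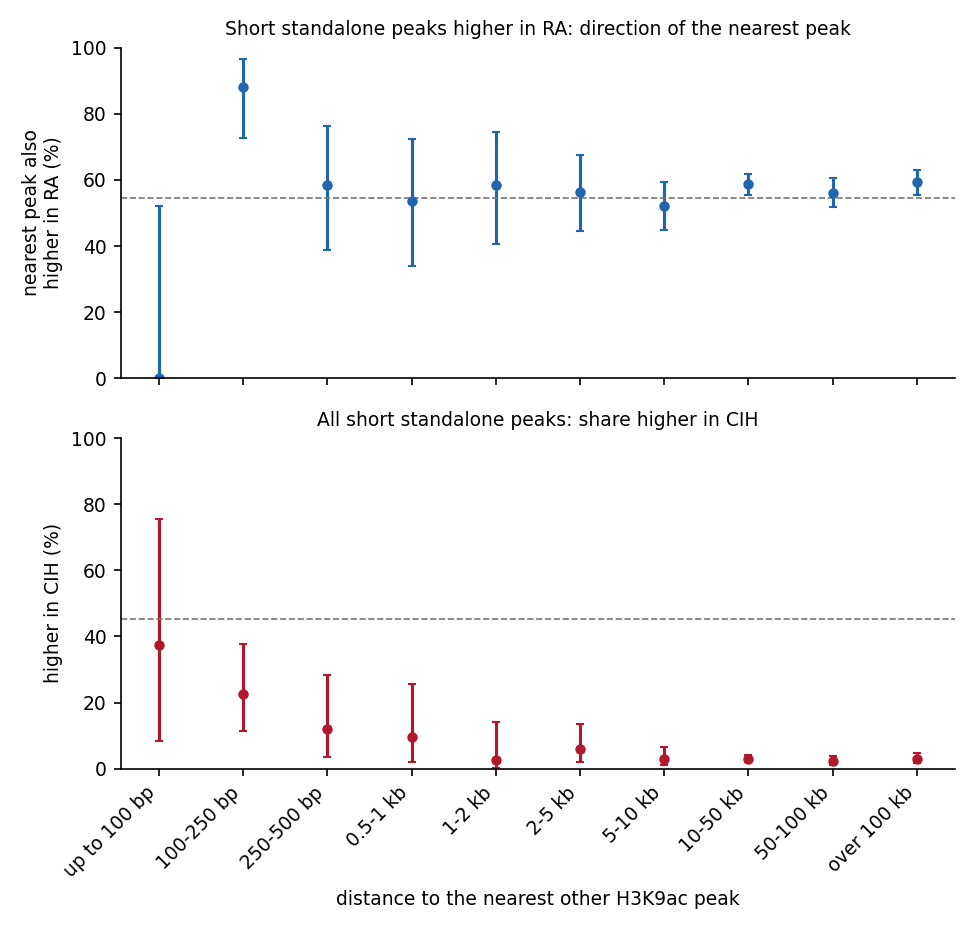
Upper plot, percent of short standalone peaks higher in RA whose nearest peak was also higher in RA, and lower plot, percent of all short standalone peaks higher in CIH (vertical axes), by distance to the nearest other H3K9ac peak (horizontal axis), with exact 95% intervals; dashed lines mark 54.6% and 45.4%, the shares of the whole list. In the upper plot the point for gaps of 100 to 250 bp stands at 88.2%, and the points over 1 kb lie between 52.1 and 59.3%.

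Peaks over 1000 bp numbered 2339, of which 1967 were higher in CIH (84.1%, 82.5 to 85.6%). With both directions pooled, short standalone peaks were rarely near them. The median distance was 350 kb (325 to 377 kb), against 286 kb (273 to 299 kb) for wider standalone peaks up to 1000 bp. Within 5 kb of a wide peak lay 28 short standalone peaks (1.07%, 0.709 to 1.54%), each beside a different wide peak. The share was 1.84% (1.57 to 2.13%) among wider standalone peaks up to 1000 bp, also pooled over direction. By direction, 7 of 94 short peaks higher in CIH lay within 5 kb (7.45%, 3.05 to 14.7%). Of the 2535 higher in RA, 21 did (0.828%, 0.514 to 1.26%). The median distances were 213 kb (162 to 388 kb) and 354 kb (328 to 381 kb), with intervals that overlap. Beyond 500 kb lay 1080 short peaks (41.1%, 39.2 to 43.0%), and 36.6% (35.7 to 37.7%) of wider standalone peaks up to 1000 bp. Distances of this size were thus frequent in both classes. The nearest wide peak was higher in CIH for 2209 of all 2629 (84.0%), an interval of 82.6 to 85.4% that holds the share among wide peaks.

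Near wide peaks the direction of short peaks was more mixed. Of the 28 within 5 kb, 7 were higher in CIH (25%, 10.7 to 44.9%), against 87 of the 2601 farther away (3.34%, 2.69 to 4.11%). Of the 10 within 500 bp, 5 favoured each exposure, and 9 of the 10 wide peaks were higher in CIH. All 5 short peaks higher in CIH stood beside a wide peak higher in CIH. Of the 5 higher in RA, 4 had a wide neighbour higher in CIH and 1 a wide neighbour with its own direction. Between 500 bp and 5 kb, 2 of 18 were higher in CIH. With peaks closer than 500 bp to any other peak left out, 16 remained within 5 kb of a wide peak and 12.5% of them were higher in CIH (1.55 to 38.3%), an interval that reaches the share found farther away. Wider standalone peaks up to 1000 bp were higher in CIH in 53 of 75 within 500 bp (70.7%, 59.0 to 80.6%).

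**Figure D4:**
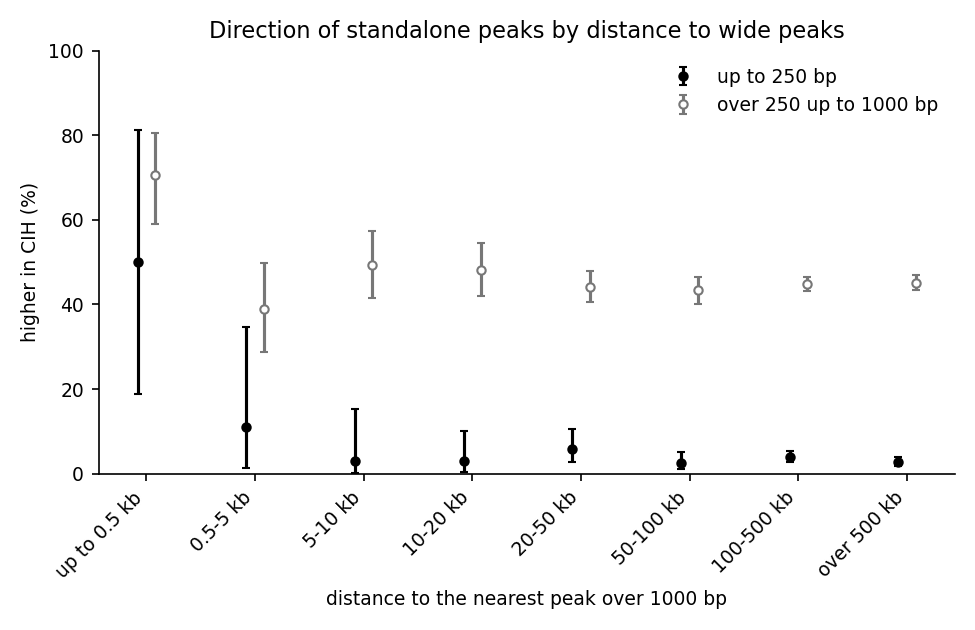
Percent higher in CIH (vertical axis) by distance to the nearest peak over 1000 bp (horizontal axis) for standalone peaks up to 250 bp (filled points) and wider ones up to 1000 bp (open points), with exact 95% intervals. The filled points stand at 50% within 0.5 kb, which is 5 of 10 peaks, and at 11.1% from 0.5 to 5 kb, which is 2 of 18. Beyond 5 kb they lie between 2.46 and 5.73% with no steady trend, and the open points lie between 38.9% and 70.7%.

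Some of the neighbouring peaks can be named from the gene listing. Of the 483 paired peaks held here, 9 had a short standalone peak within 1 kb, and 7 of the 9 shared its direction. The closest was at Postn, which encodes the matricellular protein periostin. There a 200 bp peak at chr3:54284901-54285100 lay 150 bp from a 1050 bp peak, and both were higher in RA. A pair that favoured CIH was found at Suco, which encodes a SUN domain protein. Its 1850 bp peak higher in CIH lay 400 bp from a 250 bp peak higher in CIH at chr1:163807201-163807450.

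Besides that of Postn, other named pairs had both peaks higher in RA. They were those of Srsf6, of Obfc1, a telomere-capping factor, with Slk, a kinase of the STE20 family, and of Gipc2, a PDZ domain protein. Their gaps were 250, 250 and 650 bp. Opposite directions within 1 kb were found at 2 paired peaks. At Pcgf5, which encodes a subunit of a Polycomb repressive complex, the 1950 bp peak was higher in CIH and a 250 bp peak at chr19:36629451-36629700, 350 bp away, was higher in RA. At the peak paired with Shf and with Slc28a2, a nucleoside transporter, the 700 bp peak was higher in RA and a 200 bp peak at chr2:122201001-122201200, 250 bp away, was higher in CIH. These are the nearest examples in the pairings held, chosen by distance and direction, and they do not show how often the arrangement occurs.

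Farther away, 34 of the 483 paired peaks had a short standalone peak within 20 kb. The next with an opposite direction were the peaks of 5830415F09Rik and Hemgn at 6.65 kb, of Ndufc1, a complex I subunit, with Naa15 at 6.95 kb, and of Foxs1, a forkhead factor, with Dusp15 at 7.65 kb. Those of Kcnd3, a potassium channel, with Ddx20 lay at 8.95 kb, of Dennd4b at 10.9 kb and of Gnb1, a G protein beta subunit, at 13.7 kb. The peaks of 4930412L05Rik lay at 15.0 kb, of Ndufs5, another complex I subunit, with Macf1 at 17.5 kb, of Celf2, an RNA-binding protein, at 18.0 kb, and of Mob3c at 18.2 kb. In all of these except Foxs1 and Dusp15, the short peak was higher in RA and the paired peak in CIH. At Foxs1 and Dusp15 the short peak was higher in CIH. These peaks were chosen for opposite directions, and 96.4% of all short standalone peaks were higher in RA. The arrangement therefore follows largely from the choice.

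Few genes of hypoxia, inflammation, lipid handling and other processes had a short standalone peak near their listed peak, and few listed peaks of any gene did. Within 2 kb one was found for 1 of 35 list genes held (2.86%) and for 10 of all 483 peaks held (2.07%), and within 20 kb for 2 (5.71%) and 34 (7.04%). The 10 lists used hold 164 genes, and 35 of these are paired with a peak held here. Only Srsf6, from a list of splicing and RNA processing with 3 of 16 genes held, had a short standalone peak within 2 kb. Tank, an adaptor of NF-kB signalling, from a list with 6 of 17 genes held, had one within 20 kb. The 4 of 20 hypoxia genes held had none within 20 kb, nor had the 5 of 25 immediate early and transcription factor genes, the 4 of 15 lipid genes, the 3 of 14 antioxidant genes and the 5 of 14 p53 and DNA damage genes. The same was true of the 3 of 11 TGF-beta genes, of the single gene of 21 held for macrophage identity and of the single gene of 11 held for translation. For genes whose pairing is not held here, nothing can be said.

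Short standalone peaks were found on all autosomes and on chromosome X. They made up between 10.7% of the H3K9ac peaks on chromosome 11 and 15.1% on chromosome 9, and 12.6% (12.2 to 13.1%) of those on all autosomes. On chromosome X they made up 10 of 192 peaks (5.21%, 2.53 to 9.37%), while peaks over 1000 bp made up 12.5% there and 11.2% on the autosomes. The short class was thus thinner on chromosome X than on the pooled autosomes, by intervals that did not overlap, although the interval of chromosome X reached into that of several single autosomes. Chromosome 2 held the most, with 221, and also the most H3K9ac peaks of any width, with 1659. Its share of 13.3% (11.7 to 15.1%) was near that of all autosomes. Chromosome Y, with 4 H3K9ac peaks, and the mitochondrial genome, with 2, held none.

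The lean towards RA was found on every chromosome. On all 20 chromosomes with short standalone peaks, the share higher in CIH was below that of wider standalone peaks of the same chromosome. It ran from 0 of 10 on chromosome X (0 to 30.8%) and 1 of 174 on chromosome 9 (0.575%) to 11 of 153 on chromosome 11 (7.19%, 3.64 to 12.5%). For wider standalone peaks it ran from 41.6% on chromosome 2 to 69.1% on chromosome X. Chromosomes 1, 2, 11 and 7 held 13, 13, 11 and 9 of the 94 short peaks higher in CIH. These were 6.77, 5.88, 7.19 and 6.62% of the short peaks there, against 3.58% of all short standalone peaks, with intervals that overlap. The same chromosomes held 1514, 1659, 1431 and 1251 H3K9ac peaks of any width. The median distance to the nearest other peak ran from 27.6 kb on chromosome 19 to 54.3 kb on chromosome 8, and was 98.0 kb on chromosome X.

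**Figure D5:**
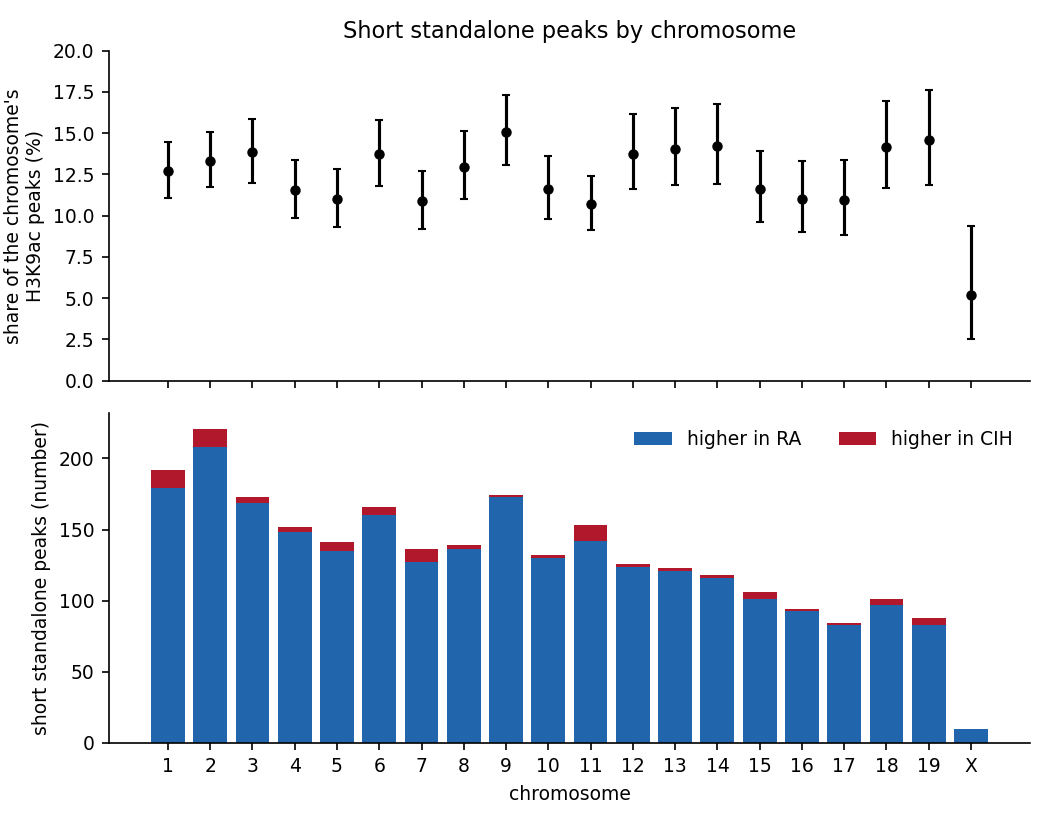
Upper plot, share of each chromosome's H3K9ac peaks that were short standalone peaks in percent, with exact 95% intervals, and lower plot, their number, blue for higher in RA and red for higher in CIH, by chromosome (horizontal axis). The autosomes lie between 10.7 and 15.1% and chromosome X at 5.21%, and blue makes up nearly every bar.

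The most remote short standalone peaks lay in regions almost free of other differential peaks. Among those higher in RA, a 150 bp peak at chrX:126284651-126284800 had its nearest other peak 2790 kb away. A 150 bp peak at chr7:68374751-68374900 and a 250 bp peak at chr17:94461101-94461350 followed, at 1890 and 1584 kb. Among those higher in CIH, the most remote were 250 bp peaks at chr11:28052101-28052350, chr19:56622451-56622700 and chr1:145372701-145372950, at 332, 273 and 251 kb. The largest distances were thus longer for peaks higher in RA, a class with many more peaks.

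None of the 2629 short standalone peaks shared a base with any of the 146 H3K27me3 differential peaks, which mark a repressive modification set by Polycomb. The exact interval of this share was 0 to 0.140%, and the limit of 3 counts that a count of 0 allows was 0.114%. Over the whole list 35 of 20943 peaks did (0.167%, 0.116 to 0.232%), an interval that overlaps that of the short standalone peaks. Among wider standalone peaks 31 did (0.289%, 0.196 to 0.409%), and among touching peaks up to 250 bp 3 did (0.141%, 0.0291 to 0.411%). Short peaks offer fewer bases for an overlap, and the part of width in this difference was not tested. Within 5 kb of an H3K27me3 peak, without sharing a base with it, lay 4 of the 2629 short standalone peaks. Of all 20943 peaks 16 did, and of the 10743 wider standalone peaks 5 did. The 4 short peaks were all higher in RA, as were 96.4% of the class. The closest, at chr17:44140701-44140950, lay 650 bp from an H3K27me3 peak higher in CIH. The others lay 1100, 2150 and 2600 bp from H3K27me3 peaks higher in RA, on chromosomes 14, 15 and 17. The one on chromosome 15 also lay 2350 bp from an H3K27me3 peak higher in CIH. Directions of H3K27me3 peaks were read by the sign rule taken from the gene listing of H3K9ac peaks.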

How the data were processed

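H3K9ac and H3K27me3 were measured by ChIP-Seq in aorta macrophages, with 1 library per mark and exposure. Tools named in the notes of the submitters are MACS2 2.1.0 for peaks, BWA 0.7.12, bedtools 2.23.0, Trimmomatic 0.32, Picard 1.121 and SAMtools 1.2, and the build named is mm9. The paper's text says that blacklisted and low complexity sequence was filtered out and that the output of more than 1 analysis tool was merged. Each mark has a single deposited list, made by the authors, of differential peaks by position, name and sign. Its deposited score column holds 1000 throughout and carries no information. The deposited lists hold no counts and there is no input library. Read counts that the study gives for selected peaks were not used. Sequencing yields of the libraries were not used.

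Width, gaps between edges, direction and H3K27me3 overlaps of at least 1 bp were computed with Python 3.11.15, numpy 2.4.6, pandas 2.3.3 and scipy 1.17.1, after the steps had been tested on simulated peaks. Samples were grouped by the labels. With 1 library per exposure, no test was run. The members and gene lists were chosen with earlier results of these data known. Named were peaks with a gene pairing held here that are short standalone peaks, list genes with one within 2 kb, the 12 paired peaks with the closest one of opposite direction and the 6 with the closest of the same direction, and the 3 most remote short peaks of each direction. The wide peaks and windows of 50 kb with the most short peaks were tied and are given as counts. Of the peaks named by this rule, 1 is not reported here. RefSeq tables of another build were not used.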

Additional observations from a re-analysis of the deposited data

How the results depend on the processing

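Of 53 alternative values for 10 results, 36 stayed inside the 95% interval of the value reported, or within 1.5 times it for a count. With a width limit of 200 bp, 923 peaks were standalone and short, with 2.28% higher in CIH, against 45% of other standalone and 15.3% of touching short peaks, a median distance of 45.9 kb for those higher in CIH, which were 21, against 45.2 kb for those higher in RA, and 0.542% within 5 kb of a wide peak. With a limit of 300 bp the number was 4059 and the shares higher in CIH were 7.00, 57.3 and 33.1%. Counted in bases, 63.3% of other standalone and 31.2% of touching short peaks were higher in CIH. The share within 5 kb of a wide peak was 0.628% where no other peak was allowed closer than 500 bp and 0.380% with wide peaks over 1500 bp. It was 0.571% at a distance limit of 2 kb and 4.98% at 20 kb, where 7.63% were higher in CIH. A stricter threshold could not be set, as the score is constant, and no library could be left out. No paired analysis was possible because each mark and exposure has 1 library. The depth of the libraries was not used here, so how it limits the calls is not known.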

Other observations

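In windows of 50 kb, 2479 held 1 short standalone peak, 75 held 2 and none held more. In the order of the list, 447 pairs of successive peaks were both short standalone peaks, of which 7 lay within 1 kb, and all 7 of these pairs had the same direction. The longest runs held 5 successive short standalone peaks, on chromosomes 10, 14 and 17, and all peaks of these runs were higher in RA. As 96.4% of all short standalone peaks were higher in RA, pairs and runs of the same direction are frequent from that share alone. The run on chromosome 10 of mm9 spans 8024201 to 8192500, with gaps of 5.95 to 114 kb.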
